A study of Homo sapiens with 6 samples.

Results

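The genes described here encode the machinery that licenses replication origins and runs the replication fork. They are 47 genes taken by symbol from the NCBI Gene IDs of the count tables: the origin recognition complex (ORC1 to ORC6), licensing and firing factors, the GINS complex, the replicative polymerases, the PCNA clamp and its loader, RPA, the enzymes of the lagging strand, fork protection and chromatin assembly factors, and FAM111A with FAM111B. The MCM genes are not among them. All 47 were found among the 28395 gene IDs of the tables, and all 47 passed the filter on low counts. They were listed for their function and not for their level, with earlier results of these data known.

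The cells were A375, an established human melanoma line, grown in RPMI medium. There were 3 groups of 2 libraries, each collected after 72 h: palbociclib at 1 µM, a CDK4 and CDK6 inhibitor, GSK3326595 at 500 nM, a PRMT5 inhibitor, and a vehicle control in 0.01% DMSO. Total RNA depleted of ribosomal RNA was sequenced, and the authors deposited raw read counts per gene. All libraries come from this 1 cell line, and the labels do not say whether the libraries of a group are separate cultures, and the p-values therefore rest on a spread that could be technical.

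Each origin is bound by the ORC, which with CDC6 and CDT1 loads the MCM helicase in G1, a step called licensing. Geminin, the product of GMNN, holds CDT1 in check once S phase has begun. The kinase CDC7 with its activator DBF4, together with CDC45 and the GINS complex, turns the loaded helicase on, and DNA polymerases alpha, delta and epsilon then copy the strands. Many of these genes are textbook targets of E2F factors, which the retinoblastoma protein restrains until CDK4 and CDK6 phosphorylate it. PRMT5 places symmetric dimethyl marks on arginines of proteins that include Sm proteins of the spliceosome and histones.

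Total counts ranged from 16589153 to 20842099 per library. The melanocyte lineage gene SOX10 was at 122 to 237 CPM and MITF at 57.4 to 87.4 CPM over the 6 libraries, while the pigment gene TYR was at 0 in 5 of them and PMEL and MLANA did not exceed 2.45 CPM. CPM is the usual depth-scaled count, here with TMM adjustment of the library sizes. The 8 melanocytic markers summed to 290 to 316 CPM with palbociclib, 212 to 264 CPM with GSK3326595 and 232 to 259 CPM with DMSO. SOX10 (212 and 237 CPM), S100B (10.6 and 10.9 CPM) and S100A1 (5.84 and 4.8 CPM) were highest with palbociclib, and DCT did not exceed 0.466 CPM. The 4 markers of the dedifferentiated melanoma state summed to 670 to 681 CPM with palbociclib, 930 to 1012 CPM with GSK3326595 and 1086 to 1127 CPM with DMSO. AXL was the most abundant of them, at 461 to 867 CPM. AXL, SOX9 and EGFR were lower in each treated library than in each DMSO library. NGFR went the other way, at 64.9 and 84.7 CPM with palbociclib, 63.2 and 106 CPM with GSK3326595 and 52.3 and 58.8 CPM with DMSO. The part of these markers in the results was not tested. The 4 epithelial markers summed to 7.77 to 9.75 CPM with palbociclib, 3.21 to 4.08 CPM with GSK3326595 and 2.4 to 2.5 CPM with DMSO, KRT14 included at 1.98 to 8.36 CPM. The summed level of 5 fibroblast and endothelial markers was 22.9 to 27 CPM with palbociclib, 27.1 to 31.8 CPM with GSK3326595 and 26.7 to 33.5 CPM with DMSO. MKI67, a marker of cycling cells, was at 144 and 171 CPM with palbociclib, 302 and 298 CPM with GSK3326595, and 550 and 572 CPM with DMSO. It was called lower with palbociclib (log2 fold change -1.83 ± 0.101, SE; edgeR adjusted p = 1.76e-07) and with GSK3326595 (-0.90 ± 0.0982; 0.000104). In bulk RNA, fewer cells in S phase and less of these RNAs per cell cannot be told apart.

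Replication gene transcripts fell broadly with palbociclib and less deeply with GSK3326595. The 47 genes together made up 1671 and 1703 CPM in the palbociclib libraries, 2194 and 2154 CPM in the GSK3326595 libraries and 3114 and 3333 CPM in the DMSO libraries. The 3 groups did not overlap in this sum. With palbociclib, 44 of the 47 genes fell, none rose and 3 were not called (quasi-likelihood F test in edgeR, Benjamini-Hochberg adjusted p under 0.05), where 20.2% of all 16381 tested genes were called lower and 19.3% higher. The falls were at least 2-fold for 25 of the 47 (4.66% of all tested genes). The median log2 fold change was -1.08 over the 47 genes and -0.02 over all genes tested, and single genes lay between -3.16 (FAM111B) and -0.15 (ORC5).

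With GSK3326595, 39 of the 47 genes fell, ORC5 alone rose and 7 were not called, where 10.2% of all tested genes were called lower and 8.58% higher. Falls of at least 2-fold numbered 8 (1.6% of all tested genes). The median was -0.63 over the 47 genes and -0.001 over all genes, and the range ran between -1.32 and 0.31. Both inhibitors were compared with the same DMSO libraries. Leaving out DMSO replicate 2 ended 13 of the 40 calls with GSK3326595 and left 27 genes lower. Those calls are given below with their genes.

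**Figure D1:**
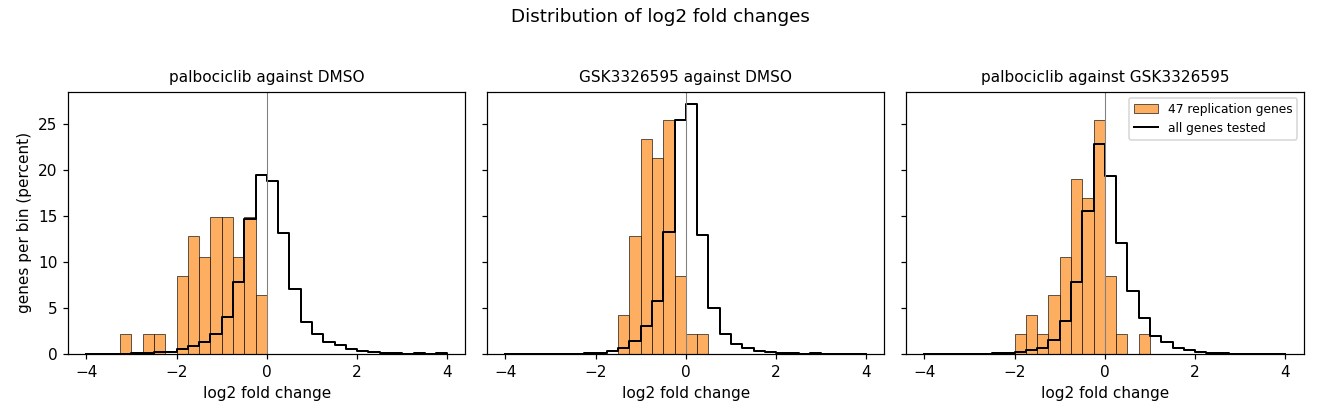
Share of genes (percent, vertical axis) in bins of log2 fold change (horizontal axis) for palbociclib against DMSO, GSK3326595 against DMSO and palbociclib against GSK3326595, with the 47 replication genes as bars and all genes tested as a black outline. The bars lie to the left of the outline, with medians of -1.08, -0.63 and -0.44.

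A gene was read as spared only where the 95% interval of its log2 fold change lay within a 1.5-fold change either way, since a missed threshold alone does not show that. That held for 6 genes with palbociclib: ORC2, ORC4, ORC5, POLD2, POLE3 and RPA2. Without DMSO replicate 1 the count was 3. The limit held for 10 genes with GSK3326595, which were ORC4, ORC5, GINS3, POLD2, POLE, POLE3, RFC1, RFC2, RPA1 and RPA2. Among all tested genes, 38.8% met this limit with palbociclib and 49.8% with GSK3326595. Some of the genes inside it, such as POLD2 with palbociclib (log2 fold change -0.41, 95% interval -0.58 to -0.24), were also called lower, so their falls were small and not absent.

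**Figure D2:**
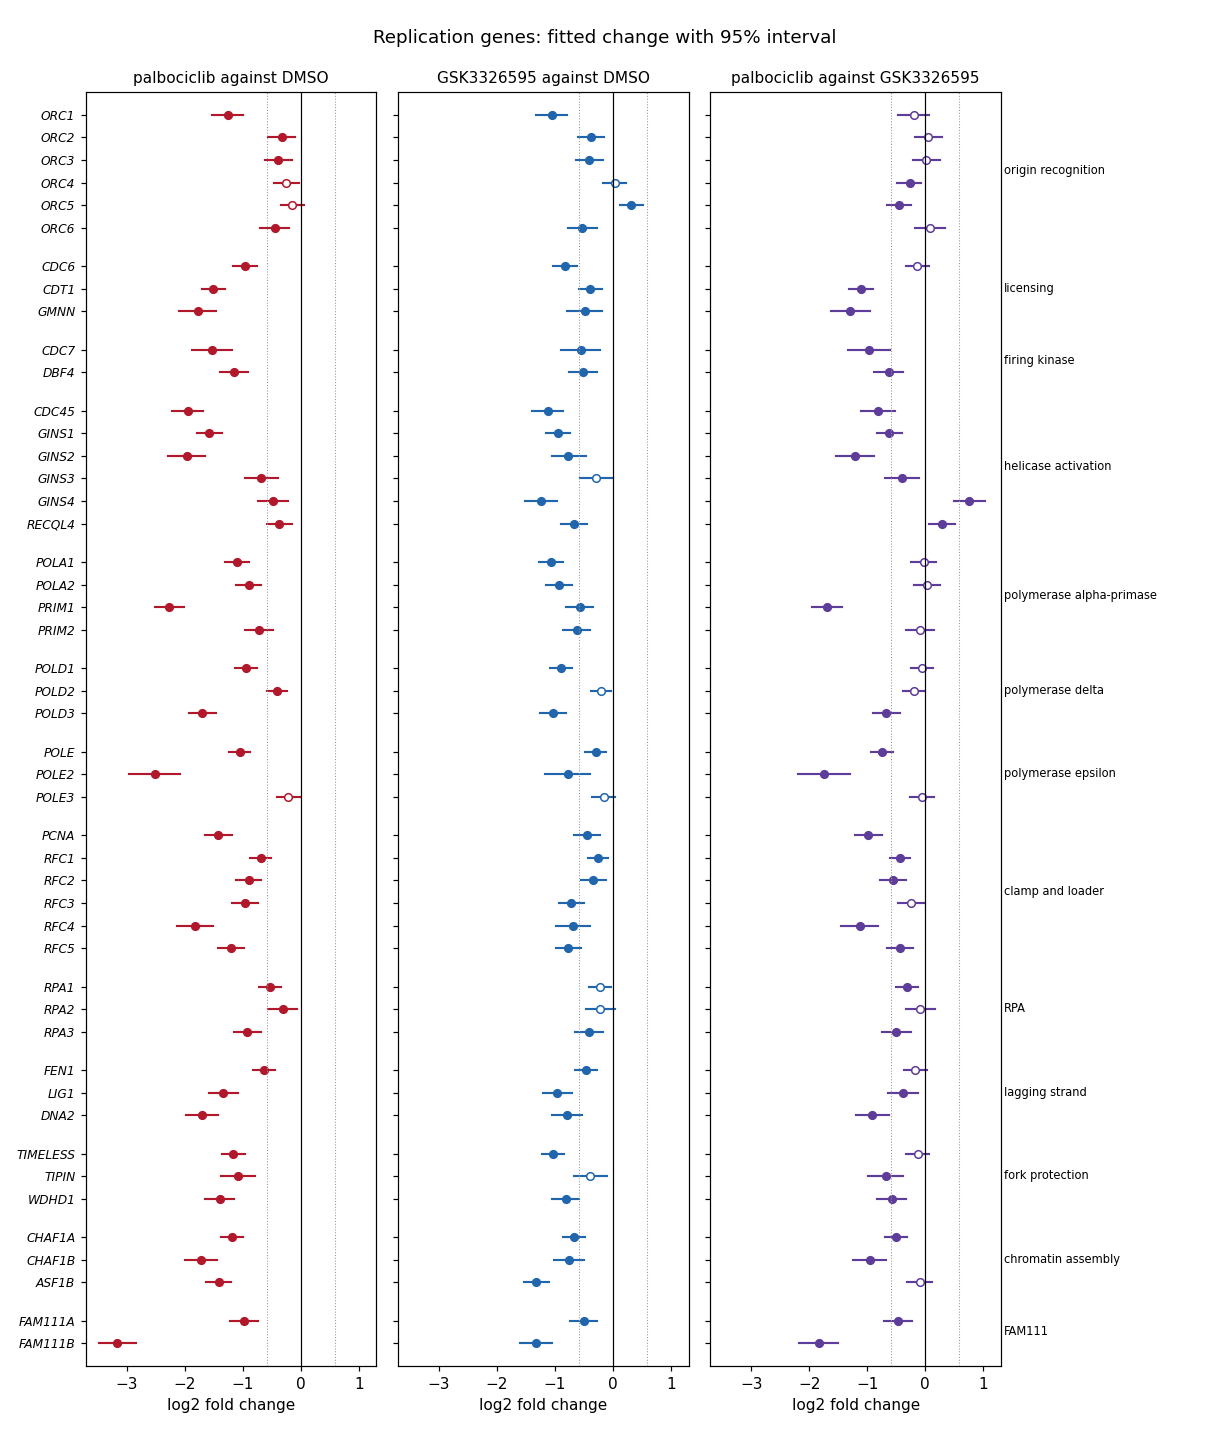
Fitted log2 fold change (horizontal axis) of each of the 47 genes, one row per gene and grouped by role, with its 95% interval as a bar; filled points were called by edgeR, open points were not, and dotted lines mark a 1.5-fold change. PRIM1, POLE2 and FAM111B stand furthest left with palbociclib, and GINS4 furthest right in the direct comparison of the inhibitors.

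Among the origin recognition genes, ORC1 stood apart from the other 5. ORC1 encodes the largest subunit, whose level cycles with the cell division cycle. It was at 22.1 and 26.6 CPM with palbociclib, 28 and 27.9 CPM with GSK3326595 and 53.2 and 63.7 CPM with DMSO. Each treated library was below each DMSO library, and the log2 fold change was -1.26 ± 0.121 with palbociclib (SE; edgeR adjusted p = 8.9e-06) and -1.06 ± 0.121 with GSK3326595 (0.00014). ORC6, the smallest subunit, was at 23.5 and 27.9 CPM with palbociclib, 23.3 and 25.3 CPM with GSK3326595 and 33.9 and 36.3 CPM with DMSO. It fell by 0.45 and by 0.53 on the log2 scale (edgeR adjusted p = 0.008 and 0.00846).

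The core subunits ORC2 and ORC3 fell by 0.33 and 0.39 with palbociclib (edgeR adjusted p = 0.0249 and 0.0108) and by 0.38 and 0.41 with GSK3326595 (0.0258 and 0.0202). ORC4, an ATP-binding subunit, was at 33.5 and 31.6 CPM with palbociclib, 39.5 and 39.1 CPM with GSK3326595 and 38.6 and 38.7 CPM with DMSO. It was not called with either inhibitor (log2 fold change -0.25, 95% interval -0.46 to -0.04, and 0.03, -0.18 to 0.23; edgeR adjusted p = 0.0559 and 0.882). The palbociclib value became a call when those libraries were fitted with the DMSO libraries alone (0.0499), in a range of 0.0129 to 0.29 over the alternatives. ORC5, its ATP-binding neighbour in the complex, was at 31.5 and 31.9 CPM with palbociclib, 43.9 and 43.2 CPM with GSK3326595 and 35.2 and 35 CPM with DMSO. The 3 groups of ORC5 values did not overlap. Its log2 fold change was -0.15 with palbociclib (interval -0.35 to 0.06; edgeR adjusted p = 0.242) and 0.31 ± 0.094 with GSK3326595 (SE; 0.0388). In the direct comparison it was lower with palbociclib (-0.46; 0.00291).

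The calls on ORC2, ORC3, ORC5 and ORC6 against DMSO were each lost when some library was left out. The ORC5 rise was not called without any 1 of the 6 libraries, at edgeR adjusted p = 0.0732 (without palbociclib replicate 1), 0.0739 (palbociclib replicate 2), 0.089 (GSK3326595 replicate 2), 0.0973 (GSK3326595 replicate 1), 0.141 (DMSO replicate 2) and 0.176 (DMSO replicate 1). Over all 14 alternatives it ranged between 0.00365 and 0.176, while its log2 fold change stayed between 0.29 and 0.34. The palbociclib call on ORC2 was lost without palbociclib replicate 2 (0.246) or either DMSO library (0.0927 and 0.0867), that on ORC3 without DMSO replicate 2 (0.0649) or palbociclib replicate 2 (0.119), and that on ORC6 without DMSO replicate 2 (0.0679) or palbociclib replicate 1 (0.104). For GSK3326595, ORC2 was lost without either DMSO library (0.0847 and 0.0735) or GSK3326595 replicate 2 (0.109), ORC3 without either DMSO library (0.0617 and 0.0819) or GSK3326595 replicate 1 (0.058), and ORC6 without DMSO replicate 2 (0.0513). With all libraries kept, the palbociclib call on ORC2 was also lost with upper quartile scaling (edgeR adjusted p = 0.0734) and with DESeq2 (adjusted p = 0.0602). The GSK3326595 call on ORC3 was also lost with DESeq2 (adjusted p = 0.0537). ORC1 kept both calls in every alternative.

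All 3 licensing genes fell with both inhibitors. In the direct comparison of the inhibitors, CDT1 and GMNN were called and CDC6 was not. CDC6, which recruits the helicase to ORC, was at 45.6 CPM in both palbociclib libraries, 49.2 and 51.1 CPM with GSK3326595 and 83.4 and 95 CPM with DMSO. Its log2 fold changes of -0.97 ± 0.0929 and -0.83 ± 0.0931 (SE; edgeR adjusted p = 8.9e-06 and 0.000123) were close, and the direct comparison of palbociclib with GSK3326595 did not call it (-0.14, 95% interval -0.34 to 0.07; 0.287). CDT1, the other loading factor, averaged 29.9 ± 1.81 CPM with palbociclib, 64.6 ± 2.7 CPM with GSK3326595 and 84.8 ± 0.241 CPM with DMSO (SD, n = 2). GMNN, the CDT1 inhibitor, was at 8.79 and 11 CPM with palbociclib, 24.1 and 24.3 CPM with GSK3326595 and 29.6 and 38.2 CPM with DMSO, with no overlap among the 3 groups.

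The log2 fold change of CDT1 was -1.51 with palbociclib and -0.39 with GSK3326595 (edgeR adjusted p = 2.83e-07 and 0.00973). That of GMNN was -1.78 with palbociclib and -0.49 with GSK3326595 (2.7e-06 and 0.0292). In the direct comparison both were lower with palbociclib, at -1.11 for CDT1 and -1.29 for GMNN (9.62e-06 and 8.25e-05). The GSK3326595 call on CDT1 was lost without DMSO replicate 2 (0.054), and that on GMNN without DMSO replicate 2 (0.245, where the log2 value was -0.29) or GSK3326595 replicate 2 (0.054). Over the 14 alternatives the GMNN value ranged between 0.000154 and 0.245.

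The firing kinase showed the same order of levels. CDC7, its catalytic subunit, was at 6.5 and 8.07 CPM with palbociclib, 16.1 and 12.5 CPM with GSK3326595 and 20.7 and 21.6 CPM with DMSO. DBF4, the activating subunit, was at 23.5 and 24.5 CPM with palbociclib, 37.8 and 36.8 CPM with GSK3326595 and 48.1 and 58.7 CPM with DMSO. Neither gene overlapped between any 2 groups. The log2 fold changes of CDC7 and DBF4 were -1.53 and -1.15 with palbociclib (edgeR adjusted p = 1.7e-05 and 1.08e-05). With GSK3326595 they were -0.56 and -0.52 (0.0234 and 0.00766). Both genes were lower with palbociclib than with GSK3326595 (0.000861 and 0.00131). Scaling by library totals ended the GSK3326595 call on CDC7 (0.0501). With GSK3326595 the CDC7 call was lost without DMSO replicate 2 (0.0884) or GSK3326595 replicate 2 (0.131), and the DBF4 call without DMSO replicate 2 (0.0749).

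The helicase activators held both the deepest falls of the early steps and the main exception. CDC45, the helicase cofactor that limits origin firing, averaged 8.7 ± 0.879 CPM with palbociclib, 15.3 ± 1.24 CPM with GSK3326595 and 33.6 ± 0.0792 CPM with DMSO (SD, n = 2). Its log2 fold changes were -1.95 ± 0.124 and -1.13 ± 0.119 (SE; edgeR adjusted p = 3.79e-07 and 8.37e-05). The 4 GINS genes encode a ring-shaped complex with 1 copy of each subunit, yet their transcripts did not move alike. GINS2 was at 7.82 and 10.3 CPM with palbociclib, 19.3 and 22.6 CPM with GSK3326595 and 33.2 and 38 CPM with DMSO. It fell by 1.97 with palbociclib and by 0.77 with GSK3326595 (1.19e-06 and 0.00274), and GINS1 fell by 1.58 and 0.95 (3.14e-07 and 6.8e-05).

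GINS4 had the opposite order. It was at 20.4 and 21.2 CPM with palbociclib, 13.2 and 11.4 CPM with GSK3326595 and 27.4 and 30.7 CPM with DMSO. The GSK3326595 libraries were the lowest and the DMSO libraries the highest, without overlap. GINS4 fell by 0.48 with palbociclib (edgeR adjusted p = 0.00611) and by 1.24 with GSK3326595 (6.65e-05), and in the direct comparison it was higher with palbociclib by a log2 of 0.76 ± 0.125 (SE; 0.000715), a call kept in every alternative. The palbociclib call was lost without DMSO replicate 2 (0.0748) or palbociclib replicate 1 (0.0545). In the GENCODE 29 annotation 23.6% of the GINS4 exonic length overlaps exons on the opposite strand, and the strand setting of the counts is not given in the sources used here. What share of these reads came from the other strand was not tested.

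GINS3 was at 9.65 and 10 CPM with palbociclib, 13.5 and 12.5 CPM with GSK3326595 and 15.9 and 15.8 CPM with DMSO. It fell by 0.68 with palbociclib (edgeR adjusted p = 0.00142) and was not called with GSK3326595 (log2 fold change -0.29, 95% interval -0.57 to 0; 0.147). RECQL4, a helicase needed for initiation, was at 69.7 and 61.6 CPM with palbociclib, 57.3 and 50 CPM with GSK3326595 and 88.4 and 82.4 CPM with DMSO. RECQL4 fell by 0.38 and 0.67 (0.00955 and 0.000866), and the palbociclib call was lost without DMSO replicate 1 (0.0657) or palbociclib replicate 2 (0.131).

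DNA polymerase alpha with its primase starts every new strand, and of its 4 subunits PRIM1 alone differed between the inhibitors by edgeR. PRIM1 (Gene ID 5557; GRCh38 chromosome 12, 56731580 to 56752323), the catalytic primase subunit that makes the RNA primer, was at 8.53 and 8.94 CPM with palbociclib, 29.7 and 26.8 CPM with GSK3326595 and 39.8 and 44.2 CPM with DMSO. PRIM2, the large primase subunit, was at 22.9 and 21.9 CPM with palbociclib, 22.3 and 25.3 CPM with GSK3326595 and 35 and 38.7 CPM with DMSO. The PRIM1 groups were far apart, whereas the palbociclib and GSK3326595 values of PRIM2 overlapped. PRIM1 fell by 2.27 with palbociclib and 0.57 with GSK3326595 (edgeR adjusted p = 1.49e-07 and 0.0035), a direct difference of -1.69 ± 0.12 (SE; 4.4e-06). Of its exonic length, 16.2% overlaps exons of other genes on the same strand, among them NACA, and 5.42% exons on the opposite strand.

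POLA1, the catalytic polymerase subunit, averaged 46.3 ± 3.48 CPM with palbociclib, 47.3 ± 3.6 CPM with GSK3326595 and 99.3 ± 2.43 CPM with DMSO. POLA2, the accessory subunit, averaged 29.8 ± 2.82, 29.2 ± 1.25 and 55.6 ± 0.121 CPM in the same groups (SD, n = 2). The direct log2 differences between the inhibitors were -0.03 for POLA1 (95% interval -0.24 to 0.18), 0.03 for POLA2 (-0.20 to 0.26) and -0.09 for PRIM2 (-0.34 to 0.15), so a difference of 1.5-fold lies outside each interval. These 3 genes fell with both inhibitors in every alternative.

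Polymerases delta and epsilon, which extend the lagging and the leading strand, each paired a deep fall in one subunit with a small or uncalled change in another. POLD3, an accessory subunit that binds PCNA, was at 16.5 and 16.7 CPM with palbociclib, 27.3 and 25.5 CPM with GSK3326595 and 51.2 and 56.8 CPM with DMSO. POLD2, the subunit that joins POLD3 to the catalytic subunit, was at 83.7 and 87.1 CPM with palbociclib, 97.3 and 99.3 CPM with GSK3326595 and 110 and 117 CPM with DMSO. The log2 fold changes of POLD3 were -1.70 and -1.03 (edgeR adjusted p = 3.29e-07 and 6.65e-05), and POLD2 fell by 0.41 with palbociclib (0.00161) but was not called with GSK3326595 (-0.21, 95% interval -0.38 to -0.03; 0.091). POLD1, the catalytic subunit, fell by 0.94 and 0.89 (6.85e-06 and 6.65e-05), and the direct comparison did not call it (-0.05, interval -0.25 to 0.14).

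POLE2 (Gene ID 5427; GRCh38 chromosome 14, 49643555 to 49688214), the polymerase epsilon subunit that contacts the helicase, was at 2.03 and 2.83 CPM with palbociclib, 7.81 and 8.5 CPM with GSK3326595 and 13 and 15.1 CPM with DMSO. The palbociclib values rest on 40 and 59 reads. POLE3, a histone-fold subunit shared with the chromatin remodelling complex CHRAC, was at 78.4 and 81 CPM with palbociclib, 78.7 and 87.1 CPM with GSK3326595 and 86.6 and 99.1 CPM with DMSO. The treated and DMSO values of POLE3 overlapped for GSK3326595 and were separated by a small gap for palbociclib. POLE2 fell by 2.52 with palbociclib (edgeR adjusted p = 1.86e-06) and 0.78 with GSK3326595 (0.00966), while POLE3 was not called (-0.22, 95% interval -0.42 to -0.02, and -0.16, -0.37 to 0.04; 0.077 and 0.245). POLE, the catalytic subunit, fell by 1.05 and 0.30 (2.03e-06 and 0.0241). Its GSK3326595 call was lost when those libraries were fitted with the DMSO libraries alone (0.0552).

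With GSK3326595 the POLE call was lost without DMSO replicate 1 (edgeR adjusted p = 0.139), GSK3326595 replicate 2 (0.102), palbociclib replicate 1 (0.0562) or palbociclib replicate 2 (0.0566), and the POLE2 call without DMSO replicate 2 (0.07). With palbociclib POLE3 became a call when the libraries were scaled by their totals (0.0445), and its adjusted p ranged between 0.0066 and 0.572 over the alternatives.

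The promoters of PRIM1 and of these epsilon subunits are shown because they pair the deepest falls among the polymerase genes with a gene that was not called with either inhibitor. Each window holds 250 bases before and 50 after the RefSeq start site (build GRCh38.p14, read along the gene's strand, which is minus for all 3): chr12:56752274-56752573 for PRIM1, chr14:49688165-49688464 for POLE2 and chr9:113410700-113410999 for POLE3, the first of its 3 listed windows. Capitals mark matches to E2F-type spellings (TTTCCCGC, TTTGGCGC or TTTCGCGC), to TTTGAA, the core of the cell cycle homology region, and to CCAAT, on either strand.
PRIM1: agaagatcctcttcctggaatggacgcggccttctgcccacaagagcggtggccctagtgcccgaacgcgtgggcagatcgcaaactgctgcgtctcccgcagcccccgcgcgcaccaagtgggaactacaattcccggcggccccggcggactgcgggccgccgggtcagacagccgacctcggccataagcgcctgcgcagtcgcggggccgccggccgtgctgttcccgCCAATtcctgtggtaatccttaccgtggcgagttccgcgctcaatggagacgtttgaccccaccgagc
POLE2: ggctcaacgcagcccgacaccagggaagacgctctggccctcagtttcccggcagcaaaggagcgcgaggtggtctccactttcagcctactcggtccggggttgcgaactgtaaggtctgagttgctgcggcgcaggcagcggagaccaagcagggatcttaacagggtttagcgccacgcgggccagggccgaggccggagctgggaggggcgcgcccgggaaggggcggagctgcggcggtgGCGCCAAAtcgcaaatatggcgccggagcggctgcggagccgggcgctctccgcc
POLE3: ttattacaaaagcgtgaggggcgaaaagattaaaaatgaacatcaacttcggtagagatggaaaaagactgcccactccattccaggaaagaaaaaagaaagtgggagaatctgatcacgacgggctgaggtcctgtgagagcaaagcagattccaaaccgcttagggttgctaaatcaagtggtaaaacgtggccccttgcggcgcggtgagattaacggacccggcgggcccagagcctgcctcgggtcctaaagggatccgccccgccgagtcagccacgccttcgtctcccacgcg
POLE2 held an E2F-type match, the reverse complement of TTTGGCGC beginning 5 bases before the start site. PRIM1 held no E2F-type spelling and a CCAAT 18 bases before the start. The POLE3 window shown held none of these letters, but another of its 3 windows held TTTGAA.

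Promoter windows were found for 40 of the 47 genes. FAM111B, the gene with the deepest fall, was among the 7 without one. An E2F-type spelling was present in 17 of the 40 (42.5%), against 5.26% of 12466 tested genes with a window and 3.3% of all 27305 genes with a window. CCAAT was present in 22 (55%, against 42.7% of tested genes) and TTTGAA in 4 (10%, against 14.4%). Windows were searched on both strands, matches of 1 set could overlap each other, and a gene with several windows counted if any of them matched. The median palbociclib log2 fold change was -1.10 in the 17 genes with an E2F-type spelling and -0.94 in the 23 without. For CCAAT it was -1.13 in the 22 genes with it and -0.95 in the 18 without, and for TTTGAA -1.07 and -1.09. These medians are given as a description. A match in letters is not a bound site, and no match says only that these letters are not in this window.

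**Figure D3:**
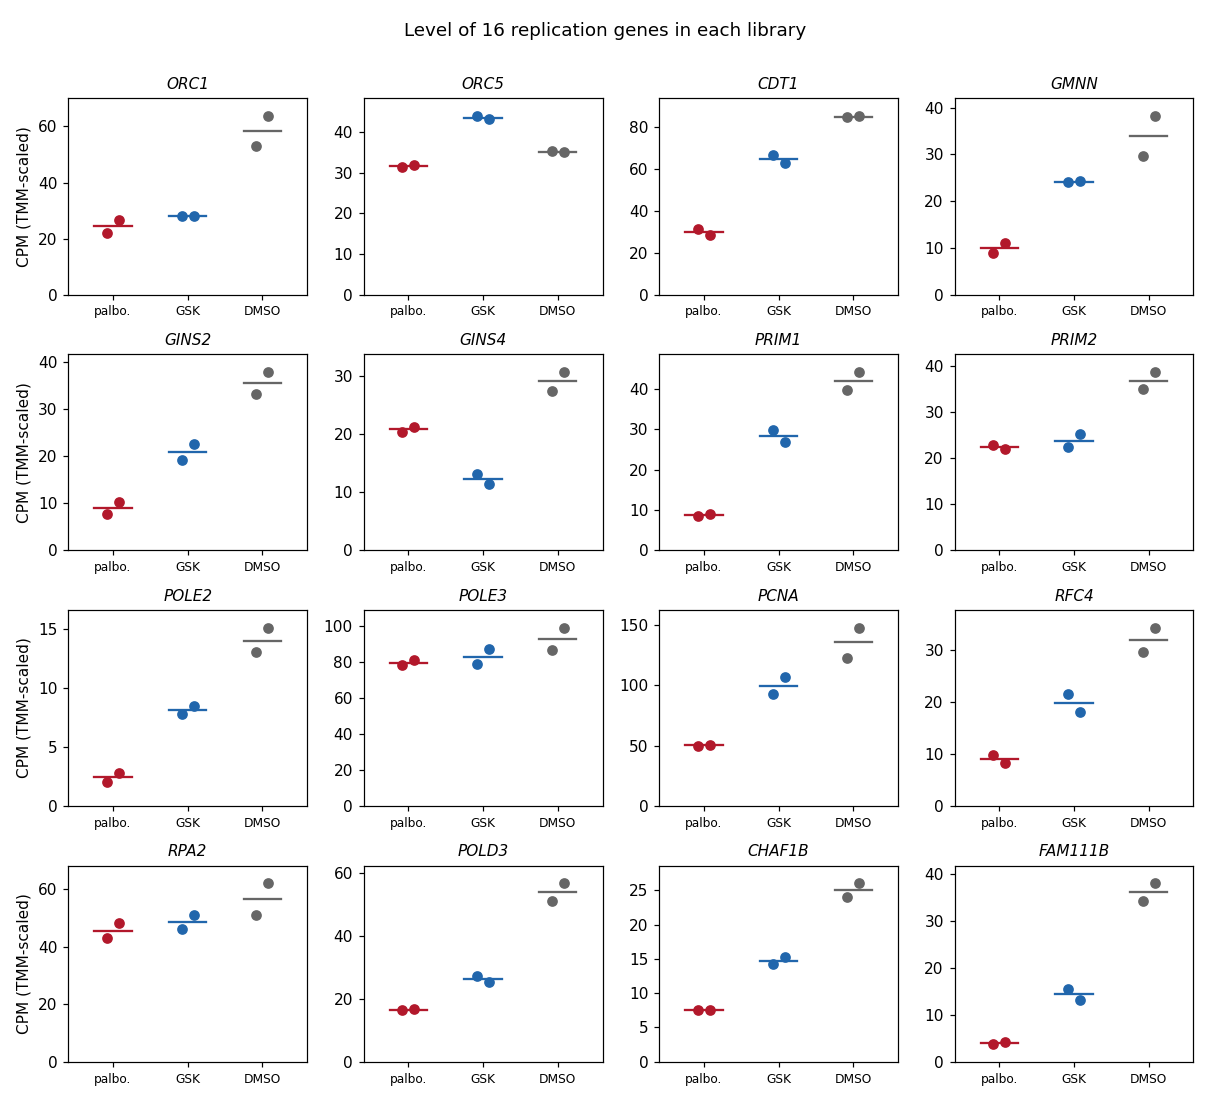
Level in CPM (vertical axis, starting at 0) of 16 genes in each of the 6 libraries, with palbociclib, GSK3326595 and DMSO from left to right, points for libraries and lines for the mean of 2. PRIM1 and POLE2 are lowest with palbociclib and intermediate with GSK3326595, PRIM2 and ORC1 are similarly low with both inhibitors, GINS4 is lowest with GSK3326595, and POLE3 and RPA2 differ little between groups.

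PCNA, the sliding clamp that tethers polymerases to DNA, averaged 50.6 ± 0.555 CPM with palbociclib, 99.7 ± 9.89 CPM with GSK3326595 and 136 ± 17.9 CPM with DMSO (SD, n = 2). It fell by 1.43 with palbociclib (edgeR adjusted p = 1.17e-06) and 0.45 with GSK3326595 (0.0113), and was lower with palbociclib than with GSK3326595 by 0.98 ± 0.106 (SE; 5.02e-05). The GSK3326595 call was lost without DMSO replicate 2 (0.121). All 5 subunits of the clamp loader fell with both inhibitors. RFC4, a small subunit, was at 9.85 and 8.21 CPM with palbociclib, 21.5 and 18 CPM with GSK3326595 and 29.6 and 34.3 CPM with DMSO, and fell by 1.82 and 0.69 (1.62e-06 and 0.00416).

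RFC1, the large subunit, was at 77.4 and 77 CPM with palbociclib, 105 and 104 CPM with GSK3326595 and 120 and 129 CPM with DMSO. Its libraries were ordered like those of RFC4, with no overlap, but its log2 fold changes were -0.69 and -0.26 (edgeR adjusted p = 3.59e-05 and 0.0423). The log2 fold changes of RFC2, RFC3 and RFC5 were -0.90, -0.96 and -1.20 with palbociclib and -0.34, -0.72 and -0.77 with GSK3326595. With DESeq2 the GSK3326595 call on RFC2 was lost (adjusted p = 0.0529). The GSK3326595 call on RFC1 was lost without any 1 of the 6 libraries, at log2 fold changes between -0.33 and -0.20. With all libraries kept it was lost with DESeq2 (adjusted p = 0.0993). It was also lost with DESeq2 size factors in edgeR (edgeR adjusted p = 0.0538), no filter on low counts (0.0801) and only the 2 groups compared (0.0919). The call on RFC2 was lost without DMSO replicate 1 (0.0665), DMSO replicate 2 (0.14) or GSK3326595 replicate 1 (0.121).

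RPA is the complex of 3 subunits that coats single-stranded DNA, and RPA2 alone of its genes met the 1.5-fold limit with both inhibitors. RPA1, the large subunit, was at 149 and 154 CPM with palbociclib, 185 and 192 CPM with GSK3326595 and 208 and 233 CPM with DMSO. It fell by 0.54 with palbociclib (edgeR adjusted p = 0.000474) and was not called with GSK3326595 (-0.23, 95% interval -0.42 to -0.04; 0.0924), where scaling by library totals made it a call (0.0419, in a range of 0.00637 to 0.446). RPA2, the middle subunit, was at 42.9 and 48.2 CPM with palbociclib, 46.2 and 50.9 CPM with GSK3326595 and 51 and 62 CPM with DMSO. The palbociclib and GSK3326595 values overlapped and lay below both DMSO values, at log2 fold changes of -0.31 and -0.22 (0.0464 and 0.204).

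RPA3, the small subunit, was at 17.1 and 18.2 CPM with palbociclib, 24.1 and 25.9 CPM with GSK3326595 and 31.3 and 35.5 CPM with DMSO, and fell by 0.92 and 0.42 (edgeR adjusted p = 5.36e-05 and 0.0206). With all libraries kept, the palbociclib call on RPA2 was lost with DESeq2 (adjusted p = 0.108). It was also lost with DESeq2 size factors in edgeR (edgeR adjusted p = 0.0676), upper quartile scaling (0.0909) and no filter on low counts (0.0559). It ended too without palbociclib replicate 1, palbociclib replicate 2 or DMSO replicate 2 (log2 fold change -0.23, -0.40 and -0.14). The GSK3326595 call on RPA3 was lost without DMSO replicate 2 (0.148) or GSK3326595 replicate 1 (0.0713).

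The enzymes that finish lagging strand fragments fell with both inhibitors. DNA2, a nuclease and helicase, was at 9.3 and 10.9 CPM with palbociclib, 20.5 and 17.5 CPM with GSK3326595 and 32 and 33.8 CPM with DMSO. FEN1, the flap endonuclease, was at 88.9 and 97.3 CPM with palbociclib, 101 and 109 CPM with GSK3326595 and 137 and 153 CPM with DMSO. DNA2 fell by 1.71 and 0.79 (edgeR adjusted p = 1.22e-06 and 0.00104), FEN1 by 0.64 and 0.46 (0.000179 and 0.00451), and LIG1, the ligase that seals the nicks, by 1.34 and 0.96 (3.83e-06 and 0.000192).

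Fork protection factors travel with the replisome and steady it. TIMELESS averaged 56.7 ± 3.59 CPM with palbociclib, 62.1 ± 5.13 CPM with GSK3326595 and 127 ± 4.57 CPM with DMSO (SD, n = 2), and fell by 1.17 and 1.04 (edgeR adjusted p = 1.64e-06 and 3.71e-05). Its partner TIPIN was at 8.79 and 9.75 CPM with palbociclib, 13.8 and 16 CPM with GSK3326595 and 19.3 and 19.9 CPM with DMSO. TIPIN fell by 1.08 with palbociclib (6.62e-05) but was just short of a call with GSK3326595 (-0.40, 95% interval -0.68 to -0.11; 0.0523), and became one without GSK3326595 replicate 2 (0.0424, with a log2 fold change of -0.51). WDHD1, which links polymerase alpha to the helicase, was at 13.8 and 12.7 CPM with palbociclib, 20.9 and 18.8 CPM with GSK3326595 and 34.3 and 35.8 CPM with DMSO. Its log2 fold changes were -1.40 and -0.82 (2.03e-06 and 0.00042).

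Chromatin assembly genes, whose products place histones on new DNA, all fell with both inhibitors. CHAF1B was at 7.62 and 7.59 CPM with palbociclib, 14.2 and 15.3 CPM with GSK3326595 and 24 and 26 CPM with DMSO. CHAF1A, its partner in the CAF-1 complex, was at 38.3 and 40.6 CPM with palbociclib, 57.3 and 55.2 CPM with GSK3326595 and 90 and 90.3 CPM with DMSO. Both had the order palbociclib, GSK3326595, DMSO in every library, with log2 fold changes of -1.72 and -0.76 for CHAF1B (edgeR adjusted p = 1.13e-06 and 0.00121) and -1.19 and -0.68 for CHAF1A (1.02e-06 and 0.000266). ASF1B, the chaperone that hands histones to CAF-1, fell by 1.41 and 1.32 (8.67e-07 and 1.98e-05).

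The FAM111 genes encode related proteases, of which FAM111A binds PCNA. FAM111B (Gene ID 374393; GRCh38 chromosome 11, 59107237 to 59127412) was at 3.76 and 4.32 CPM with palbociclib, 15.6 and 13.3 CPM with GSK3326595 and 34.3 and 38.1 CPM with DMSO. FAM111A was at 38 and 35.9 CPM with palbociclib, 57.3 and 45.3 CPM with GSK3326595 and 72.9 CPM in both DMSO libraries. Neither gene overlapped between groups, and the separation was widest for FAM111B. FAM111B fell by 3.16 ± 0.145 and 1.32 ± 0.127 (SE; edgeR adjusted p = 8.66e-08 and 5.71e-05), and FAM111A by 0.98 ± 0.112 and 0.51 ± 0.111 (3.4e-05 and 0.00854).

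Compared directly, palbociclib left 29 of the 47 genes lower than GSK3326595 did and 2 higher, where 18.2% of all tested genes were lower and 16.6% higher by edgeR at adjusted p under 0.05. Differences of at least 2-fold lower numbered 7 (2.33% of all tested genes). The median log2 difference was -0.44 over the 47 genes and -0.03 over all genes. The largest differences were those of FAM111B (-1.83), POLE2 (-1.74) and PRIM1 (-1.69), followed by GMNN (-1.29), GINS2 (-1.21), RFC4 (-1.13) and CDT1 (-1.11). At the other end stood GINS4 (0.76), RECQL4 (0.29) and ORC6 (0.08), of which ORC6 was not called (edgeR adjusted p = 0.638).

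The 16 genes not called in this comparison were ORC1, ORC2, ORC3, ORC6, CDC6, POLA1, POLA2, PRIM2, POLD1, POLD2, POLE3, RFC3, RPA2, FEN1, TIMELESS and ASF1B. For each of the 16 the 95% interval of the difference excluded 1.5-fold. Counted over all 47 genes, called or not, 19 met this limit, where 41.2% of all tested genes met it. Of the 31 calls, 8 were lost in at least 1 alternative. With all libraries kept, DESeq2 lost ORC4 (adjusted p = 0.132), GINS3 (0.122) and RECQL4 (0.0506). Scaling by library totals lost ORC4, GINS3, RECQL4 and LIG1 (edgeR adjusted p = 0.0644, 0.0632, 0.0734 and 0.0639). Upper quartile scaling lost ORC4, GINS3 and LIG1 (0.0756, 0.065 and 0.0587). DESeq2 size factors in edgeR lost ORC4 (0.0571), and no filter on low counts lost ORC4 and RECQL4 (0.0648 and 0.0584). Fitting only the 2 groups compared lost ORC4 and GINS3 (0.0661 and 0.0669). RECQL4 was lost without palbociclib replicate 1 (edgeR adjusted p = 0.315), palbociclib replicate 2 (0.0559) or GSK3326595 replicate 2 (0.212), and FAM111A without palbociclib replicate 2 (0.0626) or GSK3326595 replicate 1 (0.0766). LIG1 was lost without either palbociclib library (0.0885 and 0.138) or GSK3326595 replicate 1 (0.281, with a log2 difference of -0.18). RFC5 was lost without palbociclib replicate 1 (0.0557) or GSK3326595 replicate 1 (0.0549), RPA3 without palbociclib replicate 1 (0.0521), and RPA1 without either palbociclib library (0.145 and 0.0827) or GSK3326595 replicate 2 (0.0566). ORC4 was lost without any 1 library (0.0778 to 0.249), and GINS3 without any 1 of the 6 except GSK3326595 replicate 2 (0.0579 to 0.18).

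The ratio of 2 counts within a library does not depend on how libraries are scaled, so it shows the unequal change of subunits directly. The pairs were chosen after their values were seen and are given without a test. The log2 ratio of POLE2 to POLE3 counts was -5.27 and -4.84 with palbociclib, -3.33 and -3.36 with GSK3326595 and -2.74 and -2.71 with DMSO. For PRIM1 to PRIM2 it was -1.42 and -1.29 with palbociclib, 0.41 and 0.08 with GSK3326595 and 0.19 in both DMSO libraries. The primase subunits thus changed unequally with palbociclib, while the GSK3326595 values lay on either side of the DMSO value.

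GINS2 to GINS4 was at -1.38 and -1.05 with palbociclib, 0.54 and 0.99 with GSK3326595 and 0.28 and 0.31 with DMSO, so the inhibitors moved this ratio in opposite directions from DMSO. ORC1 to ORC5 was at -0.51 and -0.27 with palbociclib, -0.65 and -0.63 with GSK3326595 and 0.59 and 0.86 with DMSO. TIMELESS to TIPIN was at 2.62 and 2.6 with palbociclib, 2.26 and 1.87 with GSK3326595 and 2.68 and 2.71 with DMSO, the GSK3326595 values being the lowest. In GENCODE 29, 21% of the TIPIN exonic length overlaps a pseudogene on the same strand.

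**Figure D4:**
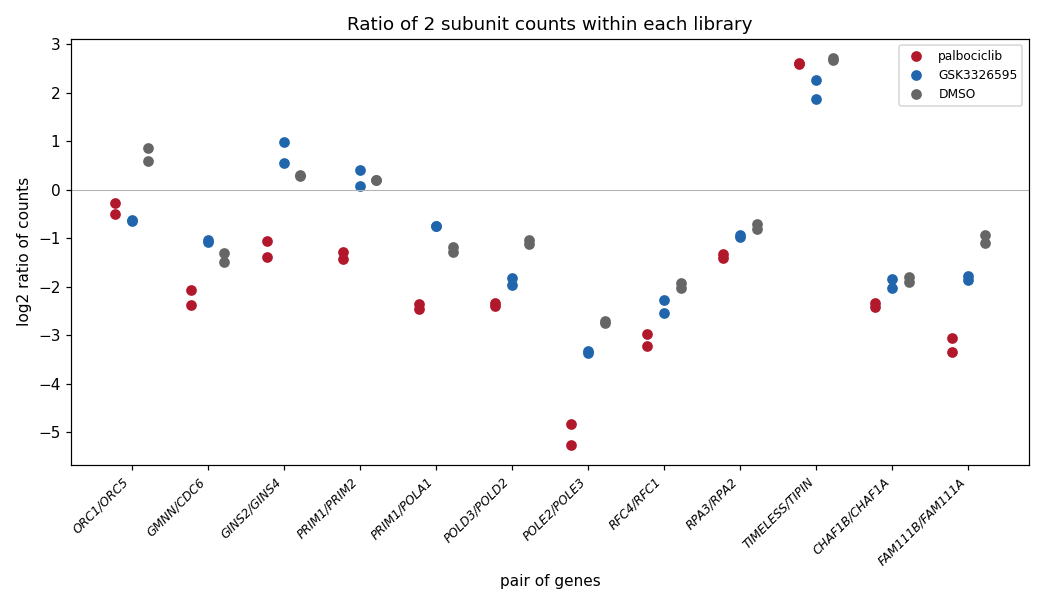
Log2 ratio of the counts of 2 genes (vertical axis) within each of the 6 libraries, for 12 pairs of subunits or partners (horizontal axis), with palbociclib, GSK3326595 and DMSO from left to right in each pair. The POLE2 to POLE3 and PRIM1 to PRIM2 ratios are lowest with palbociclib, and the GINS2 to GINS4 ratio is low with palbociclib and high with GSK3326595.

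The 30 other replication genes were listed for their function, with earlier results of these data known. With palbociclib, 24 fell, 2 rose and 4 were not called by edgeR, where 20.2% of all tested genes were lower and 19.3% higher. With GSK3326595, 19 fell, 1 rose and 10 were not called, where 10.2% of all tested genes were lower and 8.58% higher. The medians of the 30 genes were -0.79 and -0.40 on the log2 scale, against -0.02 and -0.001 over all genes tested. The deepest falls with palbociclib were those of CLSPN, the checkpoint adaptor claspin, and MMS22L, which acts at stalled forks. CLSPN was at 28.2 and 31.4 CPM with palbociclib, 54.7 and 58 CPM with GSK3326595 and 102 and 108 CPM with DMSO. MMS22L was at 15.1 and 15.5 CPM with palbociclib, 27.9 and 28.4 CPM with GSK3326595 and 53.4 and 54.7 CPM with DMSO.

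The highest palbociclib fold changes were those of POLD4 and LRWD1. POLD4, the smallest subunit of polymerase delta, was at 65 and 65.9 CPM with palbociclib, 39 and 41.3 CPM with GSK3326595 and 37.6 and 35.5 CPM with DMSO. It rose by a log2 of 0.84 ± 0.0925 with palbociclib (SE; edgeR adjusted p = 2.57e-05), in contrast to the falls of the other 3 delta subunits, and was not called with GSK3326595 (0.13 ± 0.0943; 0.351). LRWD1, an ORC-associated protein, was at 71.9 and 74.4 CPM with palbociclib, 53.8 and 60.2 CPM with GSK3326595 and 52.3 and 55.3 CPM with DMSO. The GSK3326595 and DMSO values overlapped, and LRWD1 rose by 0.44 with palbociclib (0.00241) and was not called with GSK3326595 (0.08; 0.581). With GSK3326595 the gene that rose was POLE4, the other histone-fold partner of POLE3 (0.52 ± 0.147; 0.0299).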

How the data were processed

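For each of 6 libraries the authors deposited raw counts by NCBI Gene ID. Per the submitters' processing notes, CASAVA 1.8.2, cutadapt 1.7, HISAT2, featureCounts 1.6.2 and build hg38 were used; gene annotation, strandedness and treatment of multi-mapping reads: not given in the sources used here. RefSeq names (GRCh38.p14) matched 27745 of 28395 IDs; the 650 others stayed in the totals and tests. In GENCODE 29, ORC4, GINS3, GINS4, PRIM1, RFC5 and FEN1 overlap antisense exons over more than 5% of their exonic length, and 7 of the 47 genes have named pseudogenes, and POLA2 overlaps another gene on its strand over 35.1%, so their counts are less certain.

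Counts were fitted with edgeR 4.0.16 (R 4.3.3): filterByExpr with minimum count 10 (16381 genes), TMM, 1 coefficient per group, all 6 libraries, 3 residual degrees of freedom, two-sided quasi-likelihood F tests and Benjamini-Hochberg adjustment over all genes tested. SE is the absolute log2 fold change over the square root of F, and 95% intervals use the total degrees of freedom. The fit was tested on simulated data. Replicates differed by more than counting noise (chi-square per degree of freedom 5.38 to 10.2).

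The 47 genes, roles, alternatives and lists were chosen with earlier results of these data known. Library values are given for the lowest and highest gene of each role by palbociclib fold change, genes not called lower by 1 or both inhibitors, and the 3 lowest and 3 highest in the direct comparison. CDC45, CDT1, POLA1, POLA2, PCNA and TIMELESS were given group means after their values were seen. POLE4 was named after its values were seen. Among the other replication genes, the 2 lowest and 2 highest were named.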

Additional observations from a re-analysis of the deposited data

How the results depend on the processing

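The 3 medians and the counts of genes called lower were recomputed under 14 alternatives: 3 other scalings, DESeq2 1.42.0, 2 other filters, the replicate block, fits of only the 2 groups compared, and each library left out. No called gene changed direction. Genes called lower numbered 42 to 46 with palbociclib, 36 to 43 with GSK3326595 and 26 to 32 in the direct comparison with all libraries kept, and 39 to 44, 27 to 37 and 23 to 27 with 1 library left out. Their medians with 1 library left out were -1.16 to -1.02, -0.69 to -0.55 and -0.46 to -0.34. A lone sample left in a group is then assumed to vary like the other groups.

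The 1 gene called higher with GSK3326595 (ORC5) became 0 with library totals, DESeq2, no filter on low counts, or only the 2 groups compared, and 0 in each fit with a library left out. The 2 genes higher in the direct comparison became 1 with library totals, DESeq2 or no filter, and were 1 to 2 with a library left out. Genes bounded within 1.5-fold with a library left out numbered 3 to 6 with palbociclib (3 without DMSO replicate 1) and 7 to 12 with GSK3326595. The other replication gene higher with GSK3326595 (POLE4) was 0 to 1, lost without DMSO replicate 1, DMSO replicate 2 or GSK3326595 replicate 2. The E2F-type share of promoters was 40% with 2 of the 3 spellings. The cause of these changes was not tested.

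With the replicate number as a block, 46, 43 and 32 genes were lower with palbociclib, with GSK3326595 and in the direct comparison. The block made calls of ORC4 and POLE3 with palbociclib (edgeR adjusted p = 0.0129 and 0.0066), and of TIPIN, RPA1, POLD2 and RPA2 with GSK3326595 (0.00542, 0.00637, 0.0127 and 0.0274). In the direct comparison it made calls of POLD2, RFC3 and FEN1 (0.0111, 0.0103 and 0.0288). Differences between replicates 1 and 2 correlated across genes between groups (r = 0.179, 0.341 and 0.14), but the labels state no shared batch, so this is a hint from the data and not the design. The depth of 40 to 59 reads limits POLE2 with palbociclib.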
